A study of Homo sapiens with 4 samples.

Results

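FOXC1 binding was examined around 9 genes in J82 cells. TP63 and CD44 are markers of basal identity, EGFR, ERBB2 and ERBB3 are receptors of the EGF family, and FGFR1, FGFR2, FGFR3 and FGFR4 are the FGF receptors. They are 9 of the 20136 protein-coding genes of the annotation and were named as a list, not selected by a threshold on their peaks. Earlier results of these data were known when the list was chosen. A peak was assigned to a gene when its summit, the position of highest coverage, lay in the gene body or within 50 kb of it. By this rule 33 of the 22405 peaks of replicate 1 and 63 of the 41789 peaks of replicate 2 were assigned. Peaks of both lists that overlapped by at least 1 bp were joined into a shared region, and 16 of the 13238 shared regions fell in the 9 windows.

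J82 is an established human bladder cancer cell line, cultured here in DMEM with fetal bovine serum and with no treatment or genetic change named in the labels. FOXC1, a forkhead transcription factor, was immunoprecipitated with the antibody D8A6 in 2 biological replicates, and 2 input libraries were prepared with no antibody. Each replicate gave 1 peak list made against input, so the values below are given side by side for the 2 replicates and no test between conditions was possible. The data come from 1 cell line and hold no expression or chromatin measurement, so neither the activity of the 9 genes nor the basal label itself could be checked in these files. The peak values corresponded to 43.2 M and 41.5 M ChIP reads (M, mega) in replicates 1 and 2, and the lists reached down to a −log10 p of 2.0 and 2.02, so that they also hold weak peaks.

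Basal urothelial cells lie next to the basement membrane. They express the transcription factor p63, encoded by TP63, and the hyaluronan receptor CD44, and the basal and squamous tumours of the bladder keep these markers. Receptor tyrosine kinases sit in the cell membrane, pair upon binding a ligand and phosphorylate each other. EGFR binds EGF, TGF-alpha and related ligands, ERBB2 has no known ligand of its own and acts as a partner, and ERBB3 binds neuregulins but has little kinase activity. The FGF receptors bind fibroblast growth factors together with heparan sulfate, and FGFR3 is mutated or fused in a part of urothelial tumours. Forkhead factors recognise a short A-rich and T-rich core, and AP-1, the dimer of FOS and JUN proteins, recognises a different short sequence.

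The sequences below are given because they stand at the best-ranked shared region of a gene, by the weaker of its 2 ranks, and they show the forkhead or AP-1 letters found near the summit. They were read from the plus strand of hg19 over 101 bases centred on the summit, except for CD44 and ERBB3, where the summit lies in a UTR of a neighbouring gene. For these 2, 29 bases centred on the forkhead match nearest to the summit are given, so that they hold a match by construction, and the second match of the CD44 region, ATAAACA, lies outside the stretch. The upstream region of TP63 was added after its AP-1 letters had been seen. Capitals mark the letters GTAAACA or GTAAATA and ATAAACA or ATAAATA on either strand (forkhead), TGACTCA or TGAGTCA (AP-1, each the reverse complement of the other), and an extended forkhead element, with CCAA ahead of the core. The extended element can overlap a forkhead match.
TP63 intron, chr3:189403583-189403683: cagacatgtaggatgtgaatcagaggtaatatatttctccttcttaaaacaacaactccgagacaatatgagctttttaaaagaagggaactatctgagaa
TP63 upstream, chr3:189306490-189306590: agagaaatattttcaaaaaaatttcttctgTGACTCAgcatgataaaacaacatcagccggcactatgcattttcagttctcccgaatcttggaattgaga
CD44 downstream, chr11:35282316-35282344: taacagattaaGTAAACAtagaaatatac
EGFR upstream, chr7:55063835-55063935: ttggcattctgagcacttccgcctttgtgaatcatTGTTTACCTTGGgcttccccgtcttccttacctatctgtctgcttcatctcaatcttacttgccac
ERBB3 downstream, chr12:56520166-56520194: gggacccacccTGTTTACttgtgttggta
FGFR3 upstream, chr4:1765390-1765490: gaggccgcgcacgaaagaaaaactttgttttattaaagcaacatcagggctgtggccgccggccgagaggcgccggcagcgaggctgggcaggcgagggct
FGFR4 downstream, chr5:176574443-176574543: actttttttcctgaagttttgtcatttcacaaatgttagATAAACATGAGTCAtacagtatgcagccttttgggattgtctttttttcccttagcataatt
Of the stretches centred on a summit, those of EGFR and FGFR4 held a forkhead sequence, and the FGFR4 stretch held ATAAACA directly followed by TGAGTCA. The best-ranked regions of TP63 and FGFR3 held none of the letters searched.

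Shared regions were found in the windows of 7 of the 9 genes, against 46.6% of all protein-coding gene windows. The windows of 6 of the 9 held a shared region with an irreproducible discovery rate (IDR) of 0.05 or less, against 26.9% of all windows. The IDR of a region estimates, from the ranks in both lists, the share of irreproducible regions among those placed as well or better. It is not the chance for that region alone. Windows differ in length and the 9 were longer than most, with a median of 169 kb against 127 kb over all genes, so each count is also given per 100 kb. CD44 held 5 shared regions, EGFR 4, TP63 and FGFR1 2 each, ERBB3, FGFR3 and FGFR4 1 each, and ERBB2 and FGFR2 0. The numbers are small, and the Poisson 95% intervals of neighbours in this order overlapped (1.62 to 11.7 for CD44, 1.09 to 10.2 for EGFR, 0.242 to 7.22 for TP63, and up to 3.69 for ERBB2 and FGFR2). These intervals cover counting error only.

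**Figure D1:**
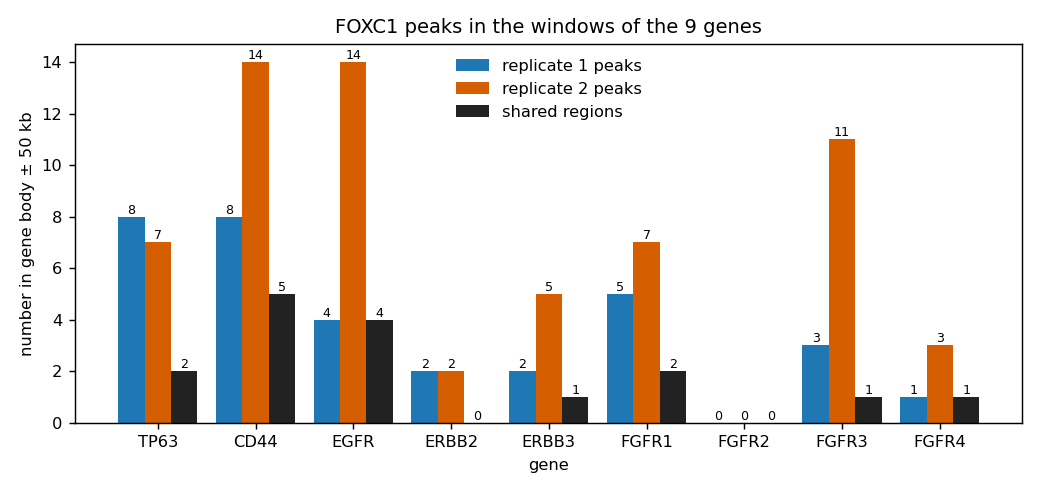
Bars give the number of peaks of replicate 1, peaks of replicate 2 and shared regions (vertical axis) in the gene body and 50 kb to either side of each of the 9 genes (horizontal axis). CD44 has the most shared regions (5), EGFR and CD44 each have 14 peaks in replicate 2, and FGFR2 has no peak in either list.

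Grouped by role, the 2 basal genes held 16 peaks in replicate 1, 21 in replicate 2 and 7 shared regions. The 3 EGF family receptors held 8, 21 and 5, and the 4 FGF receptors held 9, 21 and 4. Per 100 kb of window the shared regions came to 1.25 (0.503 to 2.58) for the basal genes, 0.890 (0.289 to 2.08) for the EGF family receptors and 0.650 (0.177 to 1.66) for the FGF receptors. The 3 intervals overlapped, and a difference between the groups was not tested. Over all protein-coding windows there were 0.519 shared regions per 100 kb, which lay inside the interval of each group. For the 9 genes together the density was 0.921 (0.527 to 1.5), with a lower bound just above 0.519. This interval covers counting error only, and the 9 were chosen with earlier results of these data known. It therefore cannot show an enrichment at these genes.

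**Figure D2:**
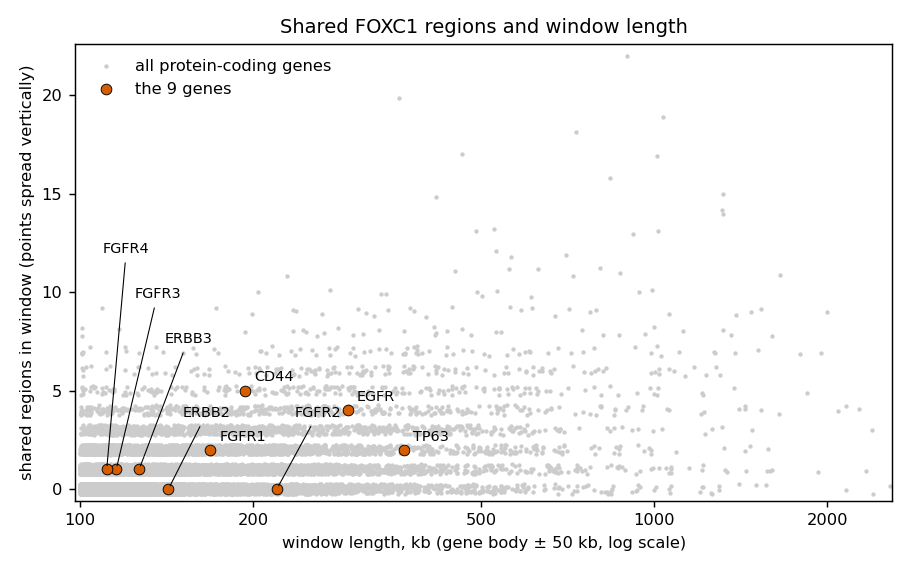
Each grey point is a protein-coding gene, with the length of its window in kb on a log axis and the number of shared regions in it on the vertical axis, and the 9 genes are drawn as named orange points. CD44 stands above most genes of similar window length, whereas TP63, with the longest window of the 9, has 2 shared regions.

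TP63 encodes the p63 factor in a long form with a transactivation domain (TA) and a form that starts from an internal promoter (ΔN), which predominates in basal epithelia. The gene spans chr3:189349178-189615065 on the plus strand. Its window held 8 peaks in replicate 1 and 7 in replicate 2, and 2 of these were shared. The first, chr3:189306253-189307027, was intergenic, 42.6 kb upstream of the TA start, with a fold enrichment over input of 2.72 and 7.49 (5.11 ± 3.37, mean ± SD, n = 2). The second, chr3:189403420-189403960, lay in an intron 54.5 kb downstream of that start, with 3.83 and 5.54 (4.68 ± 1.21). Both had an IDR under the threshold (0.0475 and 0.0252).

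No peak of either list lay within 2 kb of any TP63 start. The peak nearest to the TA start was 42.6 kb upstream in replicate 1 and 33.2 kb downstream in replicate 2. That replicate 2 peak, at chr3:189381986-189382599, had a fold enrichment of 5.44 from 47 reads and no overlapping peak in replicate 1. Around the ΔN start the nearest peaks were 17.5 kb upstream in replicate 1 (3.05-fold) and 30.6 kb downstream in replicate 2 (3.05-fold), and the nearest shared region was 103.8 kb away. Thus neither promoter of the gene had a FOXC1 peak close by. The local background at TP63 peaks had a median of 1.73 and 1.86 times the genome level in the 2 replicates. Over all peaks it was 1.19 and 1.14. CD44 (1.33 and 1.60) and ERBB2 (1.26 and 1.43) were also above these values in both lists. FGFR4 was above in replicate 1 (1.73, from 1 peak) and FGFR1 in replicate 2 (1.37). EGFR, ERBB3 and FGFR3 were below in both lists. The part of the background in the TP63 peaks was not tested.

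CD44, the hyaluronan receptor, spans chr11:35160429-35253949 on the plus strand and had 8 peaks in replicate 1, 14 in replicate 2 and 5 shared regions. Its count was above that of 97.4% of protein-coding genes and its density, 2.58 per 100 kb (0.839 to 6.03), above that of 97.8%. Of the 5 regions, 3 lay in introns, within a stretch between 24.4 and 34.4 kb downstream of the 5′ end. In replicate 1 they had a fold enrichment of 2.60, 4.30 and 3.13, and in replicate 2 of 7.50, 7.04 and 8.42. Replicate 2 was higher at each of them, and the middle one, chr11:35187464-35188025, alone of these 3 had an IDR under 0.05 (0.00985).

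The strongest region in the CD44 window, chr11:35281975-35282709, lay 28.4 kb past the 3′ end of the gene. Its fold enrichment was 10.5 and 21.2 (15.9 ± 7.59), from 85 and 167 reads at the summit. It was placed 858th and 771st in the 2 lists. This position is annotated as UTR of SLC1A2, a glutamate transporter gene, 3345 bp from one of its starts, so that it is closer to a start of SLC1A2 than to one of CD44. The fifth region, chr11:35256315-35256702, lay 2.54 kb past the 3′ end of CD44 with 3.33 and 3.94 and carried ATAAATA. None of the 5 lay within 2 kb of a start, although single lists had peaks there, such as a replicate 1 peak 1.06 kb downstream of the 5′ end (2.35-fold, −log10 q of 0.635) and a replicate 2 peak in an exon shared with CD44-AS1 (4.66-fold, −log10 q of 10.0). CD44 and CD44-AS1 overlap, and ChIP reads do not tell them apart.

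EGFR spans chr7:55086710-55279321 on the plus strand and had 4 peaks in replicate 1, all of them overlapped, and 14 in replicate 2. The region chr7:55063549-55064169, intergenic and 22.8 kb upstream of the start, was the strongest of all 16 by mean fold enrichment, with 14.5 and 18.7 (16.6 ± 2.98) from 76 and 144 reads. This SD was small beside the mean. The log2 ratio of reads scaled by ChIP read totals was 0.98, however, near the median of 1.01 over the 16 regions. The local background there was 1.03 and 1.60 times the genome level in replicates 1 and 2. The nearest annotated start to this region is that of EGFR itself, and no other protein-coding gene lies in the window. The GTAAACA core (on the minus strand), within the extended element, was centred 12 bp from the summit.

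The other 3 shared regions of EGFR were intronic and weaker in replicate 1. At 55.1 kb from the start the fold enrichment was 2.87 and 4.96, at 108.7 kb 3.18 and 7.07, and at 114.0 kb 3.09 and 9.34. The latter 2 each held ATAAACA, and all 3 had an IDR above 0.05 (0.226, 0.120 and 0.344). In replicate 2 alone, a further 10 peaks were listed, from 2.49 to 4.27-fold.

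**Figure D3:**
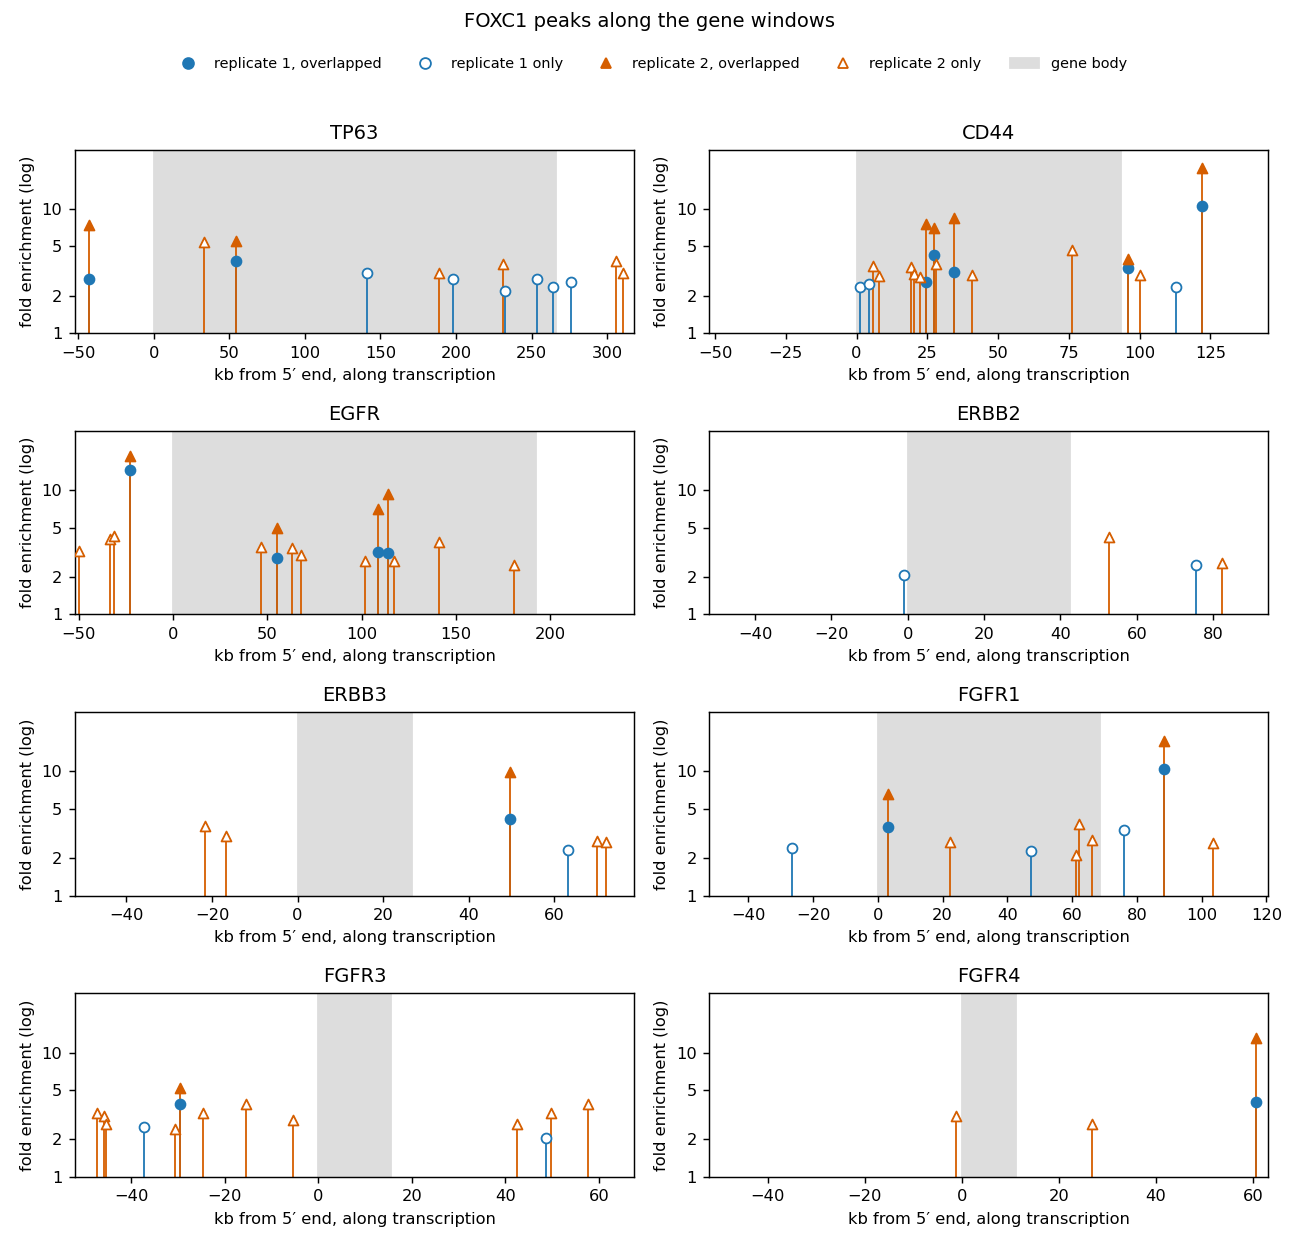
For 8 of the 9 genes (FGFR2 has no peak), each stem is a peak at its distance in kb from the 5′ end, read along the direction of transcription, and its height is the fold enrichment over input on a log axis. Blue circles are replicate 1 and orange triangles replicate 2, filled where the other list overlaps, and grey marks the gene body. The tallest stems of EGFR, CD44 and FGFR1 lie outside the gene bodies.

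ERBB2, amplified in a part of bladder tumours, spans chr17:37844167-37886679 and had 2 peaks in each list and no shared region. The strongest of replicate 1 by −log10 p was a peak of 2.52-fold in the neighbouring gene IKZF3. The other replicate 1 peak, chr17:37843133-37843392, lay 0.896 kb upstream of ERBB2, with 2.06-fold from 14 reads and a −log10 q of 0.223. The strongest of replicate 2, chr17:37896772-37897166, lay 553 bp from a start of GRB7, an adaptor gene, with 4.20-fold from 21 reads. None of these peaks had a −log10 q of 5 or more, and none was in the ERBB2 body. The GRB7 peak was above the median fold enrichment of the replicate 2 list (3.63). The window is crowded, with 7 other protein-coding genes.

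ERBB3 spans chr12:56470583-56497289, with 2 peaks in replicate 1, 5 in replicate 2 and 1 shared region. This region, chr12:56519889-56520396, lay 22.9 kb past the 3′ end, 1885 bp upstream of a start of ESYT1, which encodes a protein of membrane contact sites, in a UTR of ZC3H10. Fold enrichment was 4.15 and 9.96 (7.06 ± 4.11) with an IDR of 0.0198, and it held GTAAACA on the minus strand. The gene body of ERBB3 had no peak in either list.

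Among the FGF receptors, FGFR1 (chr8:38257733-38326352, minus strand) had 5 and 7 peaks and 2 shared regions. The stronger, chr8:38237571-38238358, lay 19.8 kb past the 3′ end of FGFR1, 407 bp from a start of the histone methyltransferase gene NSD3, with 10.4 and 17.4-fold (13.9 ± 4.94) from 58 and 122 reads. The weaker, chr8:38322857-38323593, lay within FGFR1, 3.24 kb downstream of the 5′ end and 600 bp from the start of another FGFR1 transcript, with 3.56 and 6.53 (5.04 ± 2.10) and an IDR of 0.0560. It was the only one of the 16 shared regions within 2 kb of a start of one of the 9 genes. Both held GTAAACA, and the stronger also the extended element.

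FGFR2 (chr10:123237846-123357972, minus strand) had no peak in either list across 220 kb. Of all protein-coding windows, with a shorter median length of 127 kb, 16.4% had none. The share among windows of similar length is not given here. The nearest peaks to FGFR2 formed a shared region about 156 kb upstream, of 2.82 and 3.95-fold. FGFR3 (chr4:1795020-1810599, plus strand) had 3 and 11 peaks, but only 1 shared region, chr4:1765176-1765800, 29.6 kb upstream, with 3.87 and 5.15 (4.51 ± 0.907) and an IDR of 0.230. Thus most FGFR3 peaks were in replicate 2 alone. In that list their density, 9.52 per 100 kb, was the highest of the 9 genes. It was 1.35 over the whole genome, and the value over gene windows is not given here. Most of the 11 were weak, with a median of 3.25-fold against 3.63 over the replicate 2 list. Only 1 of the 11 had a −log10 q of 5 or more. None lay in the FGFR3 body, and at 9 of the 11 the nearest start was that of a neighbour, TACC3 or LETM1. The shared region, too, was nearer to a start of TACC3 (19274 bp) than to FGFR3. FGFR4 (chr5:176513906-176525145, plus strand) had 1 and 3 peaks and 1 shared region, chr5:176574216-176574874, in an intron of NSD1, another histone methyltransferase gene. There the fold enrichments were far apart, at 4.03 and 13.1 (8.55 ± 6.39) from 32 and 68 reads, with an IDR of 0.00328. The log2 ratio of reads scaled by ChIP read totals was 1.15, near the median of 1.01 over the 16 regions. The local background there was 1.73 and 1.01 times the genome level in replicates 1 and 2. This region lay 49.3 kb past the 3′ end of FGFR4, just inside the 50 kb limit. A replicate 2 peak 1.19 kb upstream of FGFR4 was 3.06-fold and had no partner in replicate 1.

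The limit of 50 kb also left out strong regions. The next shared region beyond the CD44 window was 103 kb from the gene, with 22.8 and 47.0-fold, and that beyond the TP63 window was 84.6 kb away, with 6.72 and 13.9-fold. Both were stronger than any shared region inside the respective window. The next one at EGFR, 57.6 kb from the gene, had 2.52 and 4.39-fold.

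Taking the 16 regions as a set, 8 lay within the body of one of the 9 genes (4 in basal genes, 3 in EGFR and 1 in FGFR1). The nearest annotated start belonged to the gene itself at 10 of 16. The gene bodies took up from 11.2 of 111 kb of the window at FGFR4 to 266 of 366 kb at TP63. For these counts no share over all windows is given here, so they are not read as a trait of the 9 genes. Within 2 kb of any start were 3 of 16 (18.75%, Wilson 95% interval 6.59 to 43.0%), against 20.0% of all shared regions. At the 3, the starts were those of ESYT1, NSD3 and FGFR1.

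The replicates were then compared at these genes. Replicate 2 overlapped 16 of the 33 peaks of replicate 1 (48.5%, 32.5 to 64.8%), against 59.6% of all replicate 1 peaks. Conversely, 16 of the 63 peaks of replicate 2 were overlapped (25.4%, 16.3 to 37.3%), against 31.7%. Both background shares lay inside the intervals. The 17 peaks of replicate 1 without a partner were weak, at 2.06 to 3.35-fold from 11 to 24 reads, and none had a −log10 q of 5 or more. The 47 of replicate 2 without a partner ran from 2.12 to 5.44-fold, and 6 of them reached that value.

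Fold enrichment was higher in replicate 2 at 16 of 16 shared regions (100%, 80.6 to 100%), as at 91.9% of all shared regions. The median log2 ratio of replicate 2 to replicate 1 was 0.95 (SD 0.47 over the 16), against 0.75 (SD 0.52) over all. It ran from 0.24 at the weak CD44 region 2.54 kb past the 3′ end to 1.70 at the FGFR4 window. Summits of the 2 lists had a median gap of 10 bp and a largest gap of 34 bp, against 28 and 1170 bp over all shared regions. They lay within 100 bp at 16 of 16 (80.6 to 100%), against 88.1% of all. Of the 16 regions, 8 had an IDR of 0.05 or less (50%, 28.0 to 72.0%), against 45.2% of all shared regions. These were 2 each for TP63 and CD44 and 1 each for EGFR, ERBB3, FGFR1 and FGFR4.

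**Figure D4:**
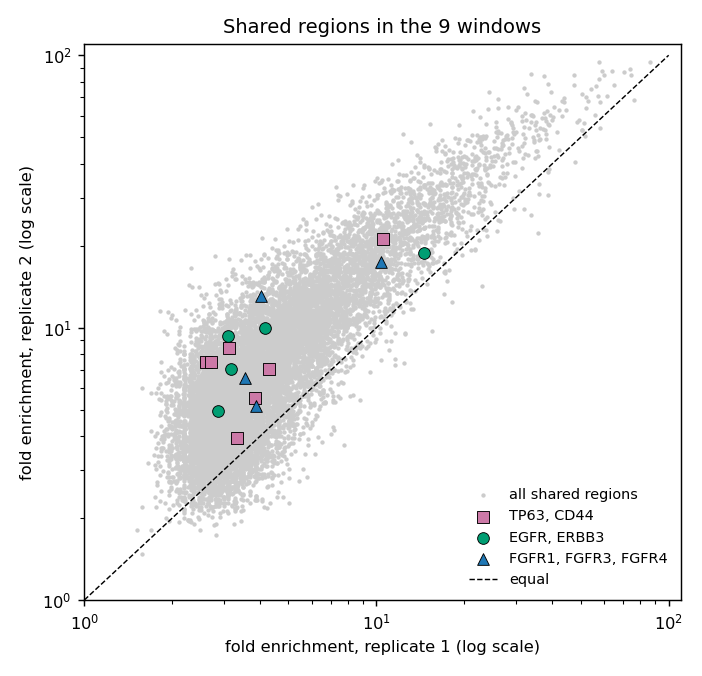
Each point is a shared region, with its fold enrichment over input in replicate 1 on the horizontal and in replicate 2 on the vertical axis, both on log scales. Grey points are all shared regions, coloured symbols the 16 of the 9 windows, and the dashed line marks equal values. All 16 lie above the line, and 3 of them, of CD44, EGFR and FGFR1, exceed 10-fold in both replicates.

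Sequence letters were counted in the 101 bases around each summit, on both strands. A forkhead sequence was present at 9 of 16 regions (56.25%, 33.2 to 76.9%), against 48.7% of all shared regions. In windows of the same length 500 bp downstream it was present at 4 of 16 (25%, 10.2 to 49.5%), against 10.8% over all. GTAAACA alone was present at 5 of 16 (31.25%, 14.2 to 55.6%), against 20.8%. An AP-1 sequence was present at 2 of 16 (12.5%, 3.50 to 36.0%), at TP63 upstream and FGFR4, against 16.6%, and the extended element at 2 of 16, at EGFR and FGFR1, against 7.28%. Of the peaks without a partner, 3 of 17 in replicate 1 held a forkhead sequence (17.6%, 6.19 to 41.0%). In replicate 2 it was 10 of 47 (21.3%, 12.0 to 34.9%). The share over all peaks without a partner is not given here, so these values are not read as a trait of the 9 genes. Any of the 3 kinds of letters was present at 10 of 16 shared regions (62.5%), against 61.8% of all.

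Other genes of the same pathways were counted with the same window. Of 12 ERBB ligand genes and ERBB4, 6 had a shared region (50%), with NRG1, which encodes the ERBB3 ligand neuregulin 1, at 15 over a window of 1316 kb. ERBB4 and HBEGF, the gene of heparin-binding EGF, had 3 each, and the best of HBEGF was 8.64 and 17.8-fold. Of 23 FGF ligand genes and FGFRL1, 11 had one (47.8%), led by FGF14 with 9 and FGF12 with 4, which encode intracellular FGF homologues. FGF1, FGF7 and FGF21 had 2 each. Both percentages were near the 46.6% of all windows. With an IDR of 0.05 or less, 5 of the 12 (41.7%) and 7 of the 23 (30.4%) had one, against 26.9%. The median window was 204 kb in the first list and 117 kb in the second, against 127 kb over all genes.

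Of 20 adaptors and feedback regulators of receptor kinases, 14 had a shared region (70%, against 46.6% of all windows), and the median window of the list was longer, at 189.6 kb against 127 kb. Of the 20, 5 had one with an IDR of 0.05 or less (25%), against 26.9% of all windows. ERRFI1, which encodes an inhibitor of EGFR and ERBB2, had 5 in 122 kb, with the best at 5.70 and 13.8-fold. FRS2, the adaptor that links FGF receptors to RAS signalling, had 4, with the best at 6.56 and 15.0-fold. CBLB, DUSP4 and DUSP6 had 2 each. Of 16 other basal and squamous genes, 8 had a shared region (50%, against 46.6% of all windows). Of the 16, 7 had one with an IDR of 0.05 or less (43.75%), against 26.9% of all windows. The median window of these 16 was 137 kb, against 127 kb over all genes. PERP, a desmosomal gene and p63 target, had 4, and ITGA6 and STAT3 had 2 each. The other 8 genes, among them the basal keratin genes KRT5, KRT6A, KRT14 and KRT17, had 0, as did 53.4% of all windows.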

How the data were processed

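Per the study's methods and the labels, single-end 75 bp reads of J82 FOXC1 ChIP and input were mapped to hg19 with bwa, and the authors called peaks per replicate against input with MACS2 2.2.7.1 after the ENCODE3 pipeline. The threshold of the lists is not given in the sources used here. Each deposited list holds a score, the fold enrichment (a ratio of summit coverage to local input background, each plus 1), the −log10 p and −log10 q, and the summit offset. Of 22447 and 41832 entries, 22405 and 41789 on chromosomes 1 to 22, X and Y were used. Input libraries had no list of their own and entered through these values.

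Summits were assigned to GENCODE 44 genes in GRCh37 coordinates, an annotation later than that of the study. The members and gene lists were chosen with earlier results of these data known. Named were all members, every shared region of a window (at most 5 per window), the strongest peaks where none was shared, the peaks nearest to the TA and ΔN starts of TP63, and the 3 genes of each list with the most shared regions, with ties. Further single peaks were named after their values were seen. Whole reads at the summit were solved from the fold enrichment and −log10 p with a genome of 2.7 Gb, which succeeded for 100% of peaks. IDR was fitted with a copula mixture to all shared regions, and tested on simulated data. Intervals are Wilson for shares and exact Poisson for counts, and cover counting error only. Python 3.11.15, numpy 2.4.6, pandas 2.3.3, scipy 1.17.1 and pysam 0.24.0 were used. Alternatives varied the window, peak strength, overlap, motif letters, IDR and replicate.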

Additional observations from a re-analysis of the deposited data

How the results depend on the processing

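The counts of shared regions were the values that moved most with the settings. With the gene body alone they fell from 7, 5 and 4 to 4, 3 and 1 for the basal genes, the EGF family receptors and the FGF receptors, and with 10 kb beyond the body to 3 for the EGF family and 1 for the FGF receptors. At an IDR of 0.05 or less they were 4, 2 and 2. Requiring a −log10 q of 5 in both lists gave 3 and 2 for the basal genes and the EGF family, and a fold enrichment of 5 gave 1 in each group. Each of these settings keeps fewer peaks by construction. With 100 kb beyond the body, which keeps more by construction, the counts of the 3 groups rose to 10, 6 and 5. That of TP63 rose from 2 to 5 and that of FGFR4 from 1 to 2. Without one of the replicates, the peaks of the other alone numbered 16 to 21 for the basal genes, 8 to 21 for the EGF family and 9 to 21 for the FGF receptors, and the share with a forkhead sequence was 30.2 to 36.4%. The share with GTAAACA alone was 31.25%. Of replicate 1 peaks with a fold enrichment of at least 5 (1 each at CD44, EGFR and FGFR1), 100% were overlapped. The same held for the 8 with a −log10 q of at least 5. These are few peaks, and the share over all replicate 1 peaks at the same limits is not given here. The median log2 ratio stayed between 0.88 and 1.01, with recovered reads as the higher value. An IDR fitted to fold enrichment, added after seeing the data, gave 6 regions in place of 8. No paired analysis was possible because each replicate gave 1 list and no result comes from a test between groups. With 16 shared regions, counting error spans wide intervals, and a difference between the 3 groups was not tested.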
